A study of Mus musculus with 4 samples.

Results

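The interferon response genes are transcripts that cells raise when interferon binds its receptors, together with the sensors and transcription factors of the same circuit. The set was given as 35 named genes, and all 35 were found by symbol among the 24411 genes of the deposited count table. Of these, 34 passed the filter on low counts (at least about 10 counts in at least 2 pools) and entered the tests with 15359 genes in all. Oas3, with 4 and 11 estimated counts in homozygous pools and 1 and 3 in heterozygous pools, did not pass.

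Messenger RNA came from cochleas of mouse pups at postnatal day 7. One genotype was homozygous for a knockout of Otof (2 pools) and the other was heterozygous for the same allele (2 pools). Otof encodes otoferlin, the calcium sensor with which inner hair cells release transmitter. Every animal thus carried at least 1 mutant allele, and no wild-type cochlea was analysed here. A pool held both cochleas of 2 to 3 pups, and the sources used here give neither the strain nor the design of the allele.

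Type I interferon signals through the receptor pair IFNAR1 and IFNAR2 to JAK1 and TYK2, which phosphorylate STAT proteins. The complex ISGF3, which contains STAT2 and IRF9, binds the interferon-stimulated response element (ISRE) in the promoters of antiviral genes. Type II interferon acts through the gamma-activated site (GAS) and induces genes such as Irf1, guanylate-binding proteins and immunoproteasome subunits. Many of the genes have a resting level in uninfected tissue, and cochlear macrophages and endothelium are among the cells that carry them.

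RefSeq promoter windows of 300 bases (250 before the annotated start and 50 from it, GRCm38.p6) were found for 28 of the 35 genes, 35 windows in all. The motifs were searched on both strands. The ISRE core, GAAANNGAAA or TTTCNNTTTC, lay in 40.0% of these windows and in 3.44% of all 32851 windows. The GAS motif, TTCNNNGAA, which reads the same on both strands, lay in 25.7% of these windows and in 8.30% of all windows. Matches can overlap, as the 2 motifs do upstream of Bst2 and as neighbouring ISRE cores do upstream of Isg15, and 1 match per gene is marked. The stretches below were chosen to show an ISRE core in a gene whose genotypes separated (Bst2) and in genes whose genotypes did not (Isg15 and Ifit1), and a GAS in a gene whose genotypes separated (Irf1). Capitals mark the motif, each stretch reads 5′ to 3′ on the gene's own strand, and positions count from the annotated start as 0. Bst2 is on the minus strand (chr8:71537572-71537611, motif from -124), Irf1 on the plus strand (chr11:53769909-53769947, from -90), Isg15 on the minus strand (chr4:156200866-156200905, from -72) and Ifit1 on the plus strand (chr19:34640770-34640809, from -104).
Bst2 ISRE core: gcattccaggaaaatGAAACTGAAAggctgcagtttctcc
Irf1 GAS: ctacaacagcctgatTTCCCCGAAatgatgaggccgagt
Isg15 ISRE core: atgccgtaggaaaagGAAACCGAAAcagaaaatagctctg
Ifit1 ISRE core: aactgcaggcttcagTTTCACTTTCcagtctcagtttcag

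The libraries held 38090724 and 31509350 estimated counts in homozygous pools and 36060278 and 32453536 in heterozygous pools. At this depth 3 counts correspond to 0.0776 to 0.0944 CPM (counts scaled to the library total), a limit that covers counting error only. Otof had 5 and 9 counts in homozygous pools and 86 and 83 in heterozygous pools, in the order of the labels. The defining markers of hair cells and spiral ganglion neurons were present, except Pou4f3, which was at 0 in both homozygous pools and in heterozygous replicate 2. The homozygous pools differed in sex-linked transcripts. Xist had 2 and 19085 counts in homozygous replicates 1 and 2, and Ddx3y had 3878 and 0. In heterozygous replicates 1 and 2 Xist had 5771 and 6733 counts and Ddx3y 2700 and 1872. The labels do not say whether sex was balanced in the pools, and its part in the results was not tested. In bulk tissue, fewer cells of a type and less RNA per cell cannot be told apart. The design text counts 2 pools per genotype and does not say whether they came from separate litters, so p-values measure only the spread between these pools.

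The question here was how the interferon response genes differed between the genotypes. Most had a small fold change, and a minority were moderately higher in homozygous pools. Of the 34 genes tested, 24 had a log2 fold change (homozygous over heterozygous) above 0 and 10 below 0, with a median of 0.20. That median depended on single pools, at 0.329 without heterozygous replicate 1 and 0.125 without homozygous replicate 1. Across all genes tested the median was 0.01 and 51.8% lay above 0, against 70.6% of the interferon response genes. Fold changes were small, with 19 of the 34 under 0.25 in absolute log2 value and 5 at 0.5 or more. A small value does not show equality here, since some SEs were wide, such as 0.73 for Ifi44 and 0.53 for Isg20. Leaving out 1 pool turned the sign of 18 of the 34.

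By edgeR's quasi-likelihood test with Benjamini-Hochberg adjustment over all genes, the test set for this comparison, 0 of the 34 passed an adjusted p of 0.05, where 0% of all genes tested passed. At an unadjusted edgeR p under 0.05, 4 were higher and 0 lower, against 4.36% of all genes higher and 8.91% lower. DESeq2, which the submitters name, gave 1 gene that rose at an adjusted p of 0.05 (Parp14) and 0 that fell, where 1.03% of all genes tested rose and 3.29% fell. In CPM, both homozygous pools lay above both heterozygous pools for 12 of the 34 (35.3%), against 21.6% of all genes tested. Both lay below for 1 of the 34 (2.94%), against 24.5%. The remaining 21 overlapped. Mx1 is among the 12, and among the 4 with an unadjusted p under 0.05, but passed the low-count filter only through the homozygous pools.

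**Figure D1:**
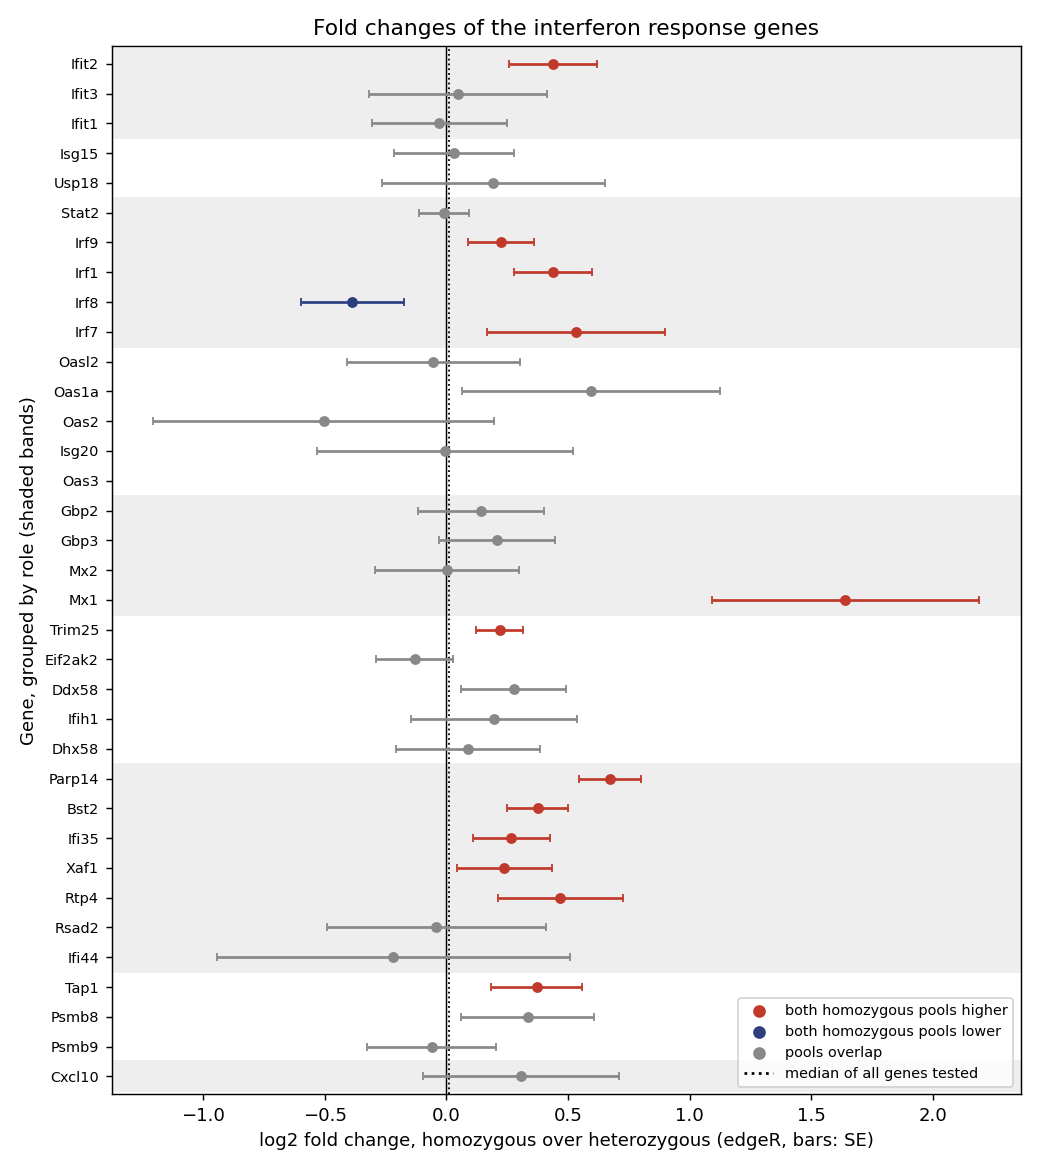
Log2 fold changes of the 34 tested interferon response genes, homozygous over heterozygous (x axis, edgeR, bars are SE), by gene and grouped by role (y axis). Points in red (both homozygous pools higher) number 12, 1 in blue is lower, and 21 in grey overlap; the dotted line is the median of all genes at 0.01, and Oas3 was not tested.

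Parp14 showed the clearest difference. It encodes a mono-ADP-ribosyltransferase and lies on chromosome 16 (35832874 to 35871544, minus strand, GENCODE M21 on GRCm38). It had 1292 and 893 counts in homozygous pools, against 698 and 598 in heterozygous pools. Its level was 30.6 ± 4.0 CPM in homozygous and 19.2 ± 0.57 CPM in heterozygous pools (mean ± SD, n = 2 each), so the genotypes did not overlap. The log2 fold change was 0.67 ± 0.13 (SE). The DESeq2 adjusted p was 0.00696 and that of edgeR 0.169. The DESeq2 call was lost when any pool was left out, with the DESeq2 adjusted p then between 0.0630 and 0.677. The DESeq2 log2 fold change was then 0.53 to 0.81, beside 0.68 with all pools. In the authors' deposited table of 343 changed genes Parp14 was the only interferon response gene, with a log2 fold change of 0.68 and an adjusted p of 0.00634. That table was made from these libraries and is not independent.

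Parp9 and Dtx3l, which lie near Parp14, were also higher in both homozygous pools, as 21.6% of all genes tested were. Other neighbours of Parp14 are not described here. Parp9, which encodes a partner of the E3 ligase DTX3L, lies within the same stretch of chromosome 16 (35938470 to 35972605) and was among the other interferon-stimulated genes of smallest p. It had 973 and 697 estimated counts in homozygous pools and 621 and 459 in heterozygous pools (log2 fold change 0.56 ± 0.15). Dtx3l (35926511 to 35939151), chosen for naming after its values were seen, had 0.36 ± 0.11. Parp9 and Dtx3l overlap by 458 exonic bases on opposite strands. The sources used here do not say how strand was handled. Both genes had fractional estimated counts, for example 973.254 for Parp9 and 882.746 for Dtx3l in homozygous replicate 1. Reads were thus divided by estimate, and both values are uncertain to that extent.

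Among the other antiviral effectors, 5 of 7 separated by genotype, all with the homozygous pools higher, as 21.6% of all genes tested did. Bst2 encodes tetherin, which holds budding virions at the cell surface. It had 13.7 and 14.0 CPM in homozygous pools and 10.7 and 10.7 CPM in heterozygous pools, so replicates lay close together and genotypes apart. The log2 fold change was 0.37 ± 0.13 (edgeR unadjusted p = 0.0313, adjusted p = 0.325, DESeq2 adjusted p = 0.400). Per kilobase of annotated exon Bst2 was the most abundant gene of the set, at 15.3 CPM per kb in homozygous and 11.8 CPM per kb in heterozygous pools.

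Rtp4, an inhibitor of viral replication, had 2.66 and 2.62 CPM in homozygous pools and 2.05 and 1.76 CPM in heterozygous pools (log2 fold change 0.47 ± 0.26). Xaf1, a proapoptotic antagonist of XIAP, had 4.45 and 4.46 CPM in homozygous pools and 3.71 and 3.84 CPM in heterozygous pools (0.24 ± 0.20). Ifi35, a partner of NMI, had 12.8 and 10.7 CPM in homozygous pools and 10.2 and 9.34 CPM in heterozygous pools (0.27 ± 0.16). None of these 3 had an unadjusted edgeR p under 0.05. Rsad2, which encodes the nucleotide-modifying enzyme viperin, overlapped between genotypes at 0.957 and 0.530 CPM in homozygous pools and 0.815 and 0.723 CPM in heterozygous pools. Ifi44 was scarce, with 7 and 13 counts in homozygous pools and 17 and 6 in heterozygous pools, and also overlapped (-0.22 ± 0.73).

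**Figure D2:**
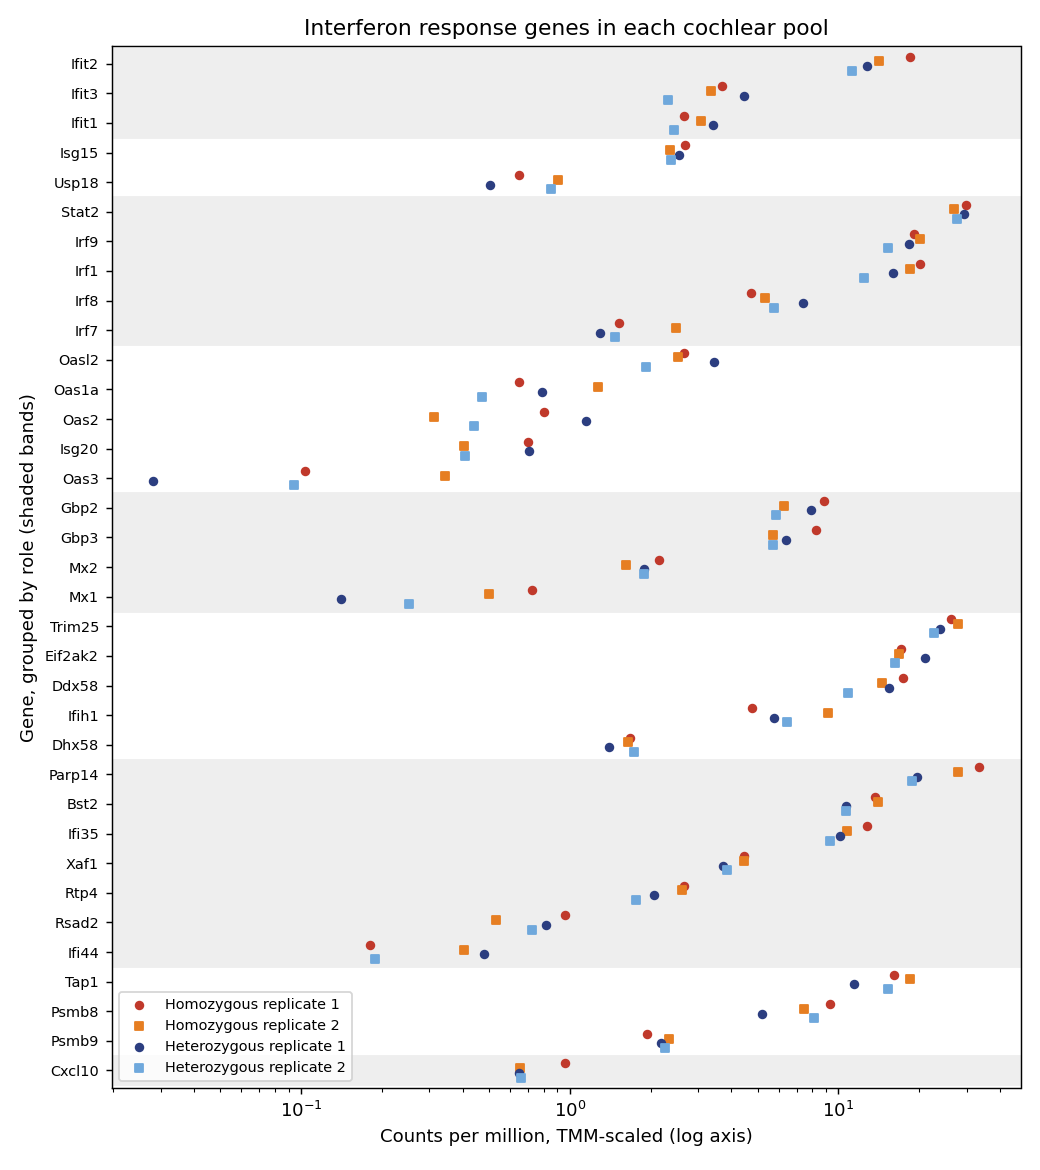
TMM-scaled CPM (x axis, log) of all 35 interferon response genes (y axis, shaded by role) in each of the 4 pools, 1 point per pool. Parp14 and Bst2 show homozygous points to the right of heterozygous ones, while Isg15, Stat2 and Ifit1 show intermixed points, and Oas3 lies near the depth limit.

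The transcription factors were divided. Irf1, which is induced through GAS by type II interferon, had 20.1 and 18.5 CPM in homozygous pools and 16.0 and 12.5 CPM in heterozygous pools. Its genotypes did not overlap, and the log2 fold change was 0.44 ± 0.16 (edgeR unadjusted p = 0.0439, adjusted p = 0.367). Irf9, the DNA-binding part of ISGF3, had 19.1 and 20.2 CPM in homozygous pools and 18.3 and 15.3 CPM in heterozygous pools (0.23 ± 0.14). Irf7, which drives interferon gene transcription, had 1.53 and 2.49 CPM in homozygous pools and 1.29 and 1.48 CPM in heterozygous pools, a narrow separation (0.53 ± 0.37).

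Stat2, which encodes a subunit of ISGF3, was nearly equal, with 28.4 ± 2.2 CPM in homozygous and 28.6 ± 1.2 CPM in heterozygous pools (mean ± SD, n = 2 each; log2 fold change -0.01 ± 0.10). Irf8, a factor of macrophages and dendritic cells, was the only gene of the set with both homozygous pools lower. It had 4.73 and 5.33 CPM in homozygous pools and 7.39 and 5.76 CPM in heterozygous pools (-0.39 ± 0.21, edgeR unadjusted p = 0.127).

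The IFIT genes, whose proteins bind viral RNA, lie together on chromosome 19 and did not move as a group. Ifit2 had 18.4 and 14.1 CPM in homozygous pools and 12.8 and 11.3 CPM in heterozygous pools (log2 fold change 0.44 ± 0.18), without overlap. Ifit1 had 2.66 and 3.08 CPM in homozygous pools and 3.40 and 2.45 CPM in heterozygous pools (-0.03 ± 0.28). Ifit3 had 3.67 and 3.37 CPM in homozygous pools and 4.47 and 2.33 CPM in heterozygous pools (0.05 ± 0.37). For both, the heterozygous pools spanned the homozygous ones. Ifit3 had fractional estimated counts and shares reads with its near-identical copy Ifit3b, so its value is uncertain.

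The ubiquitin-like modifier ISG15 and its protease USP18 are among the genes that rise most when interferon is present. Isg15 had 2.69 and 2.37 CPM in homozygous pools and 2.56 and 2.39 CPM in heterozygous pools, a log2 fold change of 0.03 ± 0.25. Usp18 was scarce at 25 and 29 counts in homozygous pools and 18 and 27 in heterozygous pools (0.19 ± 0.46). The genotypes overlapped in both genes.

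Genes of RNA decay were mostly scarce, and the 4 tested overlapped. Oas3, which was not tested, had both homozygous pools higher, at 4 and 11 counts against 1 and 3. The OAS enzymes make the oligoadenylate that activates RNase L. Oas1a had 24.9 and 40.8 estimated counts in homozygous pools and 28.4 and 15 in heterozygous pools, and reads can be shared with its paralogs (log2 fold change 0.60 ± 0.53). Oas2 had 31 and 10 counts in homozygous pools and 41 and 14 in heterozygous pools, the lowest fold change of the set at -0.51 ± 0.70. Replicates of 1 genotype differed more than the genotypes did in Oas2. Oasl2 (-0.05 ± 0.36) and Isg20, an exonuclease (-0.01 ± 0.53), also overlapped.

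The MX proteins and guanylate-binding proteins are GTPases that act on viral and vacuolar particles. Mx1 had the highest fold change of the set but few reads, with 28 and 16 counts in homozygous pools and 5 and 8 in heterozygous pools. Mx1 passed the low-count filter only through the homozygous pools, so its p-values carry that selection. Its log2 fold change was 1.64 ± 0.55 (edgeR unadjusted p = 0.0318, adjusted p = 0.327, DESeq2 adjusted p = 0.591). Mx2 had nearly the same mean in both, with 1.88 ± 0.37 CPM in homozygous and 1.89 ± 0.0027 CPM in heterozygous pools. Gbp2 (0.14 ± 0.26) and Gbp3 (0.21 ± 0.24), neighbours on chromosome 3, were highest in homozygous replicate 1 and overlapped.

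Of the cytosolic RNA sensors, Trim25, the E3 ligase of the RIG-I pathway, separated. It had 26.3 and 27.9 CPM in homozygous pools and 23.8 and 22.7 CPM in heterozygous pools (log2 fold change 0.22 ± 0.10, edgeR unadjusted p = 0.0752). Ddx58, which encodes RIG-I, had 17.4 and 14.5 CPM in homozygous pools and 15.5 and 10.9 CPM in heterozygous pools and overlapped (0.28 ± 0.22). Ifih1, which encodes the sensor MDA5, had its highest and lowest values within the homozygous pools, at 4.79 and 9.16 CPM, against 5.73 and 6.42 CPM in heterozygous pools. Dhx58, a regulator of both sensors (0.09 ± 0.30), and Eif2ak2, the kinase PKR that stops translation (-0.13 ± 0.16), overlapped.

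The peptide-presentation genes Tap1, Psmb8 and Psmb9 lie side by side in the major histocompatibility complex on chromosome 17. Tap1, a subunit of the peptide transporter, had 16.2 and 18.5 CPM in homozygous pools and 11.5 and 15.3 CPM in heterozygous pools (log2 fold change 0.37 ± 0.19, edgeR adjusted p = 0.482). Psmb9 encodes an immunoproteasome subunit and is read from the same stretch in the other direction. Psmb9 had 1.94 and 2.34 CPM in homozygous pools and 2.19 and 2.26 CPM in heterozygous pools (-0.06 ± 0.27). Tap1 thus separated by genotype and Psmb9 did not, and the difference between them was not tested. Their annotated exons overlap by 212 bases on opposite strands. Psmb8 had 9.31 and 7.45 CPM in homozygous pools and 5.20 and 8.11 CPM in heterozygous pools (0.33 ± 0.27). It was lowest in heterozygous replicate 1.

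The windows of Tap1 and Psmb9 share 275 bases, shown because this stretch faces both genes (chr17:34187306-34187580, GRCm38.p6, plus strand, which is the strand of Tap1). Neither the ISRE core nor GAS as spelled above was in the window of Tap1 or of Psmb9, which says only that those letters are not there.
Tap1 and Psmb9 shared window: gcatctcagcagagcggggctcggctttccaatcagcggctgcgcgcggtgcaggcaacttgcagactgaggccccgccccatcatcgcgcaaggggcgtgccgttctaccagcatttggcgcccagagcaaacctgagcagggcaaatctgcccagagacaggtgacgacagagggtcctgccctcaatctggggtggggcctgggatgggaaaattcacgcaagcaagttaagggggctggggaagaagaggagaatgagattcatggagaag

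Immunoproteasome subunits take the place of constitutive ones when interferon is present, so they were set beside them per kilobase of exon. Psmb8 stood at 2.94% and 2.18% of Psmb5 in homozygous pools, against 1.41% and 2.16% in heterozygous pools. Psmb9 stood at 0.906% and 0.989% of Psmb6 in homozygous pools, against 0.915% and 0.887% in heterozygous pools. Psmb5 and Psmb6 were thus far more abundant than these partners in every pool. Psmb10, the remaining immunoproteasome subunit, was at 43.4% and 50.4% of Psmb7 in homozygous pools, against 42.2% and 40.6% in heterozygous pools.

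The chemokine gene Cxcl10, which draws CXCR3-bearing lymphocytes, had 37 and 21 counts in homozygous pools and 23 and 21 in heterozygous pools. Only homozygous replicate 1 stood above the rest (log2 fold change 0.31 ± 0.40). Its annotated exons overlap those of the more abundant gene Art3 by 133 bases on the opposite strand, so this value is uncertain.

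Per kilobase of exon, the set spanned from 0.0201 CPM per kb for Oas3 to 13.6 CPM per kb for Bst2, averaged over the 4 pools, with a median of 1.07. Next after Bst2 came Ifi35 (6.80 CPM per kb in homozygous and 5.65 in heterozygous pools), Stat2 (4.79 and 4.83) and Trim25 (4.70 and 4.04, in the same order). The lengths are unions of all annotated exons, so rarely used exons lower the value of a gene. Of the 35 genes, 13 had under 100 counts in every pool, among them Oas1a, Oas2, Rsad2, Usp18 and Mx1.

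The ISRE core was less common among genes with both homozygous pools higher than among the other genes of the set. Of all genes with a window, 3.99% had the core and 9.55% had GAS. Among genes with a window and a test, 1 of 9 with both homozygous pools higher had the core (Bst2), against 12 of 18 of the others. The others include Irf8, which had both homozygous pools lower and no core. By median log2 fold change, the 13 genes with the core stood at 0.14 and the 14 without it at 0.23. Both lay above the all-gene median of 0.01. GAS lay in the window of 4 of the 9 (Bst2, Ifi35, Ifit2 and Irf1) and 5 of the 18. Motif matches are a description of these letters in these windows, and Parp14, Rtp4, Mx1, Mx2, Oas2, Usp18 and Dhx58 had no window in the table. Parp14, Rtp4 and Mx1 are among the 12 tested genes with both homozygous pools higher, so the 9 are an incomplete group.

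**Figure D3:**
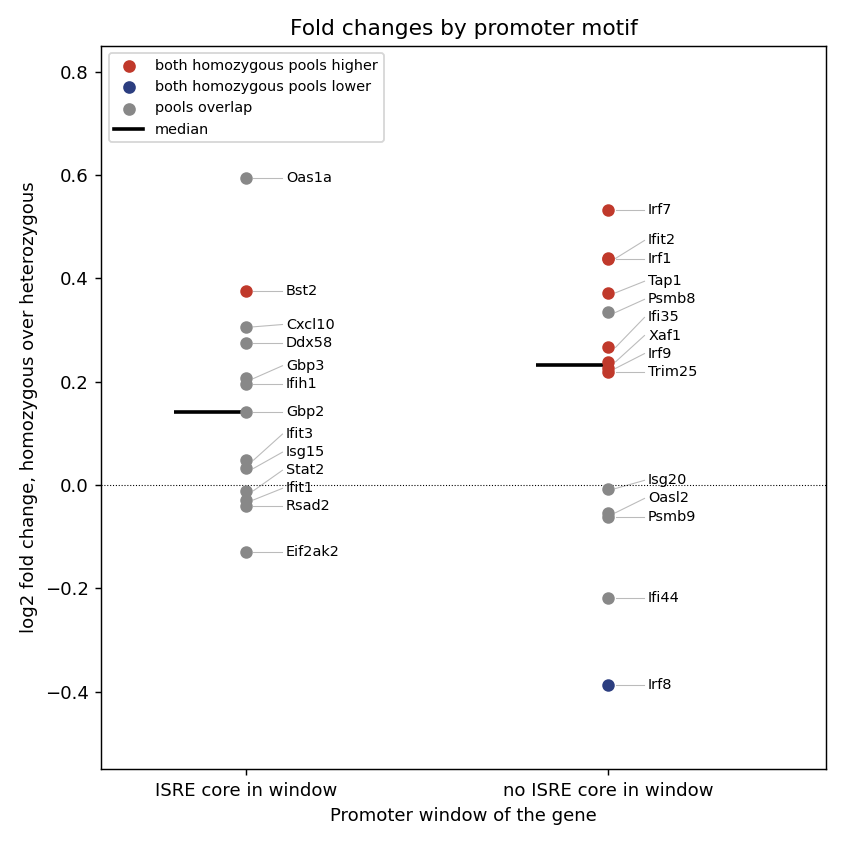
Log2 fold change, homozygous over heterozygous (y axis), of the 27 tested interferon response genes with a promoter window, split by whether the window holds the ISRE core (x axis); bars are medians, 0.14 with the core and 0.23 without. Red points (both homozygous pools higher) number 1 with the core and 8 without it.

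Across pools, the set was highest in homozygous replicate 1 and lowest in heterozygous replicate 2. Summed over the 35 genes, the level was 292 and 276 CPM in homozygous pools and 253 and 229 CPM in heterozygous pools. Homozygous replicate 1 held the highest value for 15 of the 34 tested genes, where it did so for 22.5% of all genes. Heterozygous replicate 2 held the lowest for 15 of the 34, against 23.3% of all genes, and the highest for 1, against 27.3% of all genes. The 2 heterozygous pools therefore differed in the set as well, with 23 genes of heterozygous replicate 1 and 11 of heterozygous replicate 2 above the mean of both.

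**Figure D4:**
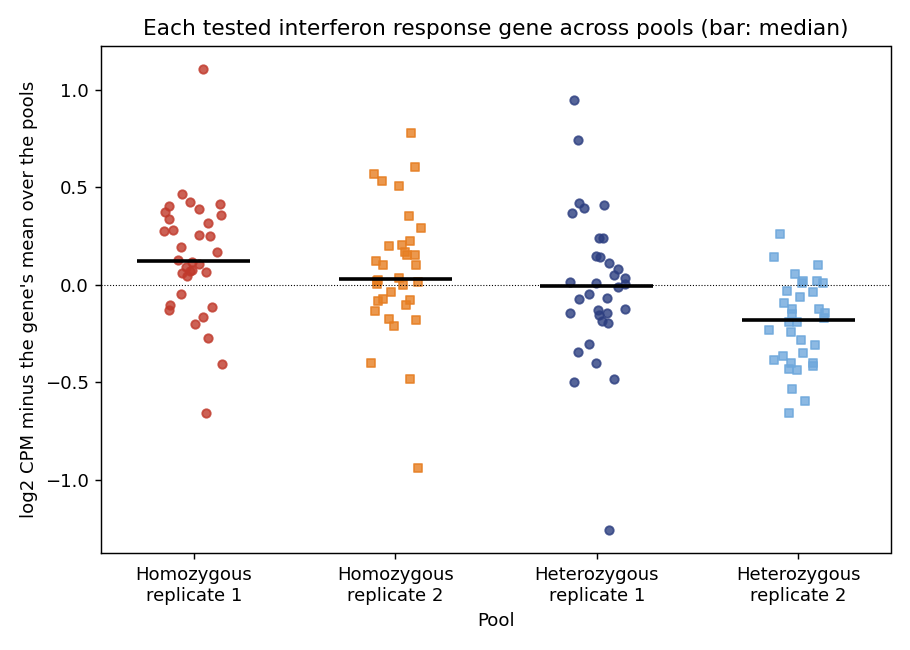
Log2 CPM of each of the 34 tested interferon response genes minus its mean over the 4 pools (y axis), by pool (x axis); bars are medians. The medians are 0.12 and 0.03 in homozygous replicates 1 and 2 and -0.003 and -0.18 in heterozygous replicates 1 and 2.

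Markers of immune and vascular cells followed the replicate number more than the genotype. The 10 macrophage markers summed to 317 and 271 CPM in homozygous pools and 329 and 238 CPM in heterozygous pools. Of the 10, 0 passed either test, where 0% of all genes passed edgeR and 1.03% rose and 3.29% fell by DESeq2. In a list this short that says little. The 4 endothelial markers summed to 225 and 180 CPM in homozygous pools and 229 and 140 CPM in heterozygous pools, also with 0 past either test. Both sums were lowest in heterozygous replicate 2, as that of the interferon response genes was, and their part in the result was not tested. Irf8 went the other way from the macrophage sum in homozygous pools, with its lowest level in homozygous replicate 1.

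White blood cell markers were scarce. The 8 monocyte and neutrophil markers summed to 1.19 and 2.31 CPM in homozygous pools and 3.32 and 1.67 CPM in heterozygous pools, with Elane at 0 in every pool but heterozygous replicate 2, where it had 1 count. The 6 lymphocyte markers summed to 2.23 and 1.18 CPM in homozygous pools and 0.871 and 0.786 CPM in heterozygous pools. Of the 3 plasmacytoid dendritic cell markers, 0 passed either test. Of all genes tested, 0% passed edgeR, and 1.03% rose and 3.29% fell by DESeq2, so this says little. Of the 3, 2 had a log2 fold change above 0 and 1 below, from -0.19 to 0.43. Siglech had 3.23 and 1.18 CPM in homozygous pools and 1.83 and 2.01 CPM in heterozygous pools. The 3 erythroid markers summed to 335 and 201 CPM in homozygous pools and 291 and 169 CPM in heterozygous pools. All 3 had a log2 fold change above 0, and 1 of them, the globin gene Hbb-bs, rose by DESeq2 (1.82 ± 0.33, DESeq2 adjusted p = 0.0141), where 1.03% of all genes rose. None of the 3 passed edgeR's adjusted p, nor did any gene tested. Hbb-bs had fractional counts and can share reads with other globin genes. Neuronal markers separated the genotypes, with 3 of 4 spiral ganglion neuron markers fallen by DESeq2, for example Snap25 (log2 fold change -0.84 ± 0.13), where 3.29% of all genes fell. The other marker, Prph, did not pass and was higher in both homozygous pools (0.68 ± 0.27). Their part in the higher share of the interferon response genes was not tested.

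**Figure D5:**
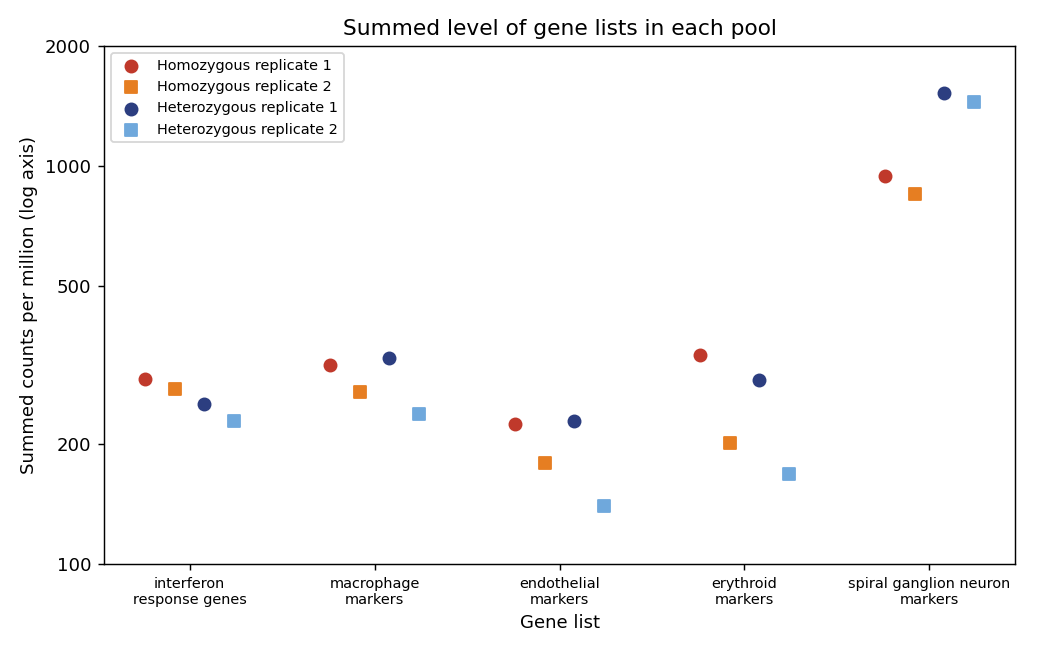
Summed CPM (y axis, log) of the 35 interferon response genes and of 4 marker lists (x axis) in each of the 4 pools. The interferon response genes are at 292 and 276 CPM in homozygous and 253 and 229 CPM in heterozygous pools, while macrophage, endothelial and erythroid sums overlap between genotypes and the neuronal sum separates them.

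The upstream part of the pathway was then described. Of 21 interferon ligand genes, 20 had 0 counts in every pool, Ifnb1 and Ifng included, which at this depth allows up to 0.0944 CPM per pool. Ifnz, listed at 5 and 2 counts in homozygous pools and 1 and 4.70 in heterozygous pools, was the exception. All 6 receptor genes were detected, with 2 higher and 3 lower in both homozygous pools, beside 21.6% and 24.5% of all genes tested. Il10rb, the shared chain of the type III interferon and interleukin-10 receptors, had 47.6 and 46.9 CPM in homozygous pools. It had 62.9 and 60.9 CPM in heterozygous pools. By DESeq2 it fell (log2 fold change -0.38 ± 0.12, DESeq2 adjusted p = 0.0425). By edgeR it did not pass (-0.39 ± 0.07, edgeR adjusted p = 0.167). Il10rb was the only receptor gene of the 6 to pass DESeq2, where 3.29% of all genes fell. Ifnar1 (-0.04 ± 0.07) and Ifnar2 (0.14 ± 0.07) did not pass.

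Of 13 JAK-STAT core genes and negative regulators, 0 passed DESeq2 or edgeR's adjusted p. Of all genes tested, 0% passed edgeR, and 1.03% rose and 3.29% fell by DESeq2. A count of 0 in the short lists of this paragraph therefore says little. Socs1, a feedback inhibitor of JAK kinases, had 7.14 and 8.79 CPM in homozygous pools and 4.64 and 5.60 CPM in heterozygous pools (log2 fold change 0.64 ± 0.21, edgeR adjusted p = 0.313). Socs3, the related inhibitor of gp130 signalling, had 8.56 and 8.13 CPM in homozygous pools and 6.52 and 5.91 CPM in heterozygous pools (0.42 ± 0.16, edgeR adjusted p = 0.372). Of the 13, 4 had both homozygous pools higher, Socs1 and Socs3 included, and 1 had both lower. Across all genes tested these shares were 21.6% and 24.5%. The other 8 overlapped, Jak1 (0.01 ± 0.10) among them. Of 16 sensing adaptors and kinases, 0 passed, and Myd88, the adaptor of Toll-like receptors, had 0.52 ± 0.14 and Traf3 -0.34 ± 0.08. Of 7 other IRF genes, 0 passed, and Irf2, which competes with IRF1 for DNA, had 0.26 ± 0.09.

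A wider list of interferon-stimulated genes resembled the named set in the share above 0 but not in summed level. It was also chosen with earlier results of these data known. Summed over the 83 genes found, the level was 3331 and 2985 CPM in homozygous pools. It was 3553 and 3775 CPM in heterozygous pools, and thus higher there. A sum is weighted to the most abundant genes, and most single genes of the list went the other way. Of 76 tested, 0 passed edgeR's adjusted p or DESeq2, where 0% of all genes passed edgeR and 1.03% rose and 3.29% fell by DESeq2. Of the 76, 59 had a log2 fold change above 0 and 17 below, and the median was 0.21. Both homozygous pools lay above both heterozygous pools for 31 (40.8%) and below for 3 (3.95%), beside 21.6% and 24.5% of all genes tested. Gbp7, a guanylate-binding protein gene, had 20.6 and 19.1 CPM in homozygous pools and 14.9 and 13.1 CPM in heterozygous pools (0.50 ± 0.13). Mov10, an RNA helicase gene, had 0.51 ± 0.14, and Tdrd7 had -0.31 ± 0.09. The list includes Cnp, also a myelin gene, at -0.45 ± 0.15.

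Genes of antigen presentation by class I molecules were mixed. Of 20 tested, 1 rose and 0 fell by DESeq2, where 1.03% and 3.29% of all genes did, and the median log2 fold change was 0.08. H2-T23, a nonclassical class I gene, was the one that rose, with 548 and 555 estimated counts in homozygous pools and 202 and 306 in heterozygous pools (1.04 ± 0.29, DESeq2 adjusted p = 0.0269, edgeR adjusted p = 0.269). Its fractional counts show reads shared with related class I genes, and the class I alleles of the animals are not known here, so the value is uncertain. Tap2, the partner of Tap1, had 33.3 and 30.0 CPM in homozygous pools and 25.0 and 23.1 CPM in heterozygous pools (0.40 ± 0.11). The light chain gene B2m had 0.04 ± 0.14 and its genotypes overlapped.

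The genes on chromosome 5, which also holds Otof, were Cxcl10, Oasl2, Oas2, Oas3 and Oas1a, at 61.9 to 90.5 Mb from it. None of the 4 of these that were tested separated by genotype. Of all genes tested, 21.6% had both homozygous pools higher and 24.5% had both lower, so this says little for 4 genes. Oas3, which was not tested, was higher in both homozygous pools at few counts.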

How the data were processed

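The authors deposited estimated counts per gene for 4 cochlear libraries, made with Salmon on mm10 per the submitters' processing notes. The series' design text names the nf-core pipeline. Versions, annotation and strand handling were not stated. The authors also deposited a table of changed genes, per the file headers from DESeq2. Its deposited columns give each gene a log2 fold change with its error, a score from the authors' Wald test, p-values before and after adjustment, and a signal averaged by the authors over the libraries.

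Estimated counts were rounded. edgeR 4.0.16 (R 4.3.3; quasi-likelihood F test, TMM scaling, filterByExpr, genotype as the only term, Benjamini-Hochberg over 15359 genes) was the test, and DESeq2 1.42.0 (Wald test, default filtering, all genes) the alternative. "Rose" and "fell" mean a DESeq2 adjusted p under 0.05. The SE of a fold change is implied by the F statistic. CPM use scaled library sizes. Both fits were tested on simulated data. Pools of 1 genotype differed by more than counting noise (chi-square per degree of freedom 49.0 for homozygous and 29.8 for heterozygous pools). Positions and exon lengths come from GENCODE M21 (GRCm38, the build called mm10), which may differ from the authors' annotation.

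The members and gene lists were chosen with earlier results of these data known. Values in every pool were given by rule for genes with an unadjusted edgeR p under 0.05, the 4 highest and 4 lowest fold changes, the 4 highest levels per kilobase and genes whose genotypes did not overlap. From the other lists up to 4 genes of smallest p were eligible. Further genes were named as reference points after their values were seen. These were Jak1, Ifnar1, B2m, Ifnb1, Ifng, Psmb10, Dtx3l, Cnp, Elane, Xist and Ddx3y. Some genes are not reported here.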

Additional observations from a re-analysis of the deposited data

How the results depend on the processing

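By edgeR 0 genes and 0 interferon response genes passed an adjusted p of 0.05, under TMM and under each other scaling and filter tried; 2038 genes had an unadjusted p under 0.05. DESeq2 gave 664 genes and 1 interferon response gene (Parp14). The labels do not say that replicate numbers pair pools, and with 2 pairs the deviations of same-numbered pools correlated at 0.312. The replicate block in edgeR gave 495 genes and 1 interferon response gene (Parp14, edgeR adjusted p = 0.0433). DESeq2 with the replicate block, chosen after seeing the data, gave 599 genes and 1 interferon response gene. Leaving out 1 pool, with the spread taken from the genotype that kept both pools, edgeR gave 0 to 60 genes (60 without homozygous replicate 1) and 0 interferon response genes. DESeq2 leaving out 1 pool, also chosen after seeing the data, gave 223 genes without heterozygous replicate 1, 169 without heterozygous replicate 2, 686 without homozygous replicate 1 and 307 without homozygous replicate 2, and 0 interferon response genes. The median log2 fold change of the interferon response genes was 0.125 to 0.329 over these edgeR fits and 0.338 by DESeq2 without heterozygous replicate 1. The cause was not tested.

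Signs turned only for fold changes near 0 when the scaling changed. With upper-quartile scaling Stat2 was 0.0129 and Isg20 0.015. With library totals Ifit1 was 0.0191, Stat2 0.0373, Isg20 0.0399 and Rsad2 0.00602. With no filter Stat2 was 0.00119 and Isg20 0.00237. With at least 1 CPM in at least 2 pools Mx2 was -0.000186, and with the replicate block -0.00889.

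Leaving out 1 pool turned the sign of 18 of the 34 genes. Their lowest and highest log2 fold changes were Ifit1 -0.243 to 0.227, Usp18 -0.137 to 0.608, Stat2 -0.102 to 0.0727, Oas2 -1.36 to 0.35, Oasl2 -0.413 to 0.434, Isg20 -0.471 to 0.437, Mx2 -0.229 to 0.196, Dhx58 -0.0544 to 0.246, Eif2ak2 -0.299 to 0.0637, Rsad2 -0.547 to 0.321, Ifi44 -0.874 to 0.605, Ifit3 -0.343 to 0.595, Isg15 -0.0743 to 0.129, Gbp2 -0.14 to 0.375, Gbp3 -0.0975 to 0.455, Psmb9 -0.191 to 0.0581, Cxcl10 -0.00853 to 0.557 and Ifih1 -0.334 to 0.583. At this depth 13 of the 35 genes had under 100 counts in every pool.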
